A study of Mus musculus and Rattus norvegicus with 6 samples.

Results

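The miR-17-92 and miR-106b-25 clusters are related groups of microRNA (miRNA) genes whose members share a small set of seeds. Their members were taken by name from tables of small RNA counts of rat and mouse retina, as every arm and copy of miR-17, miR-18a, miR-19a, miR-19b, miR-20a, miR-92a, miR-92b, miR-106b, miR-93 and miR-25. This gave 24 mature names: 23 of 764 in the rat table, 22 of 1915 in the mouse table and 21 in both. The name miR-935 begins with the same letters as miR-93 but is another miRNA and was set aside. The rat samples were retinas of wild-type Sprague Dawley rats and the mouse samples retinas of wild-type C57BL/6 mice, both 9 weeks old, with 3 libraries per species (r1, r2 and r4 for rat, m1, m3 and m4 for mouse). Nothing in the labels says that each library came from its own animal, and the spread behind the p-values may therefore be partly technical. Strain and table change with the species and cannot be told apart from it. Library batch is not given in the sources used here and may change with the species too.

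MiRNAs are cut as a 5p and a 3p arm from the sides of a hairpin, and 1 arm is usually kept while the other, the passenger, is degraded. The kept arm guides the silencing complex to messenger RNAs mainly through its seed, bases 2 to 8, so miRNAs with a common seed can bind the same targets. The miR-17-92 cluster, made from 1 primary transcript, promotes proliferation and survival and is a target of Myc; in the nervous system it is known for expansion of progenitor cells. The miR-106b-25 cluster is a paralog carried by Mcm7, a gene of the DNA replication helicase. A further paralog cluster, miR-106a-363 on the X chromosome, also encodes miR-19b-3p and miR-92a-3p, so counts of these names can come from either cluster. In rat, miR-17-1-3p and miR-17-2-3p are listed as copies whose loci were not checked. Counts of miR-17-5p in rat may therefore also come from more than 1 locus. The retina of an adult rodent consists mainly of neurons that no longer divide.

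The sequences are shown because the members fall into groups by seed that cut across the clusters, and the results are ordered by these groups. The tables list each name with the prefix rno- in rat and mmu- in mouse, which is left out below. Shown are the mouse mature sequences of RefSeq (GRCm38.p6), matched by name for 21 of the 22 mouse names, with the seed in capitals. The rat sequences were not compared. The first 4 share the seed of miR-17, the next 1 is the near relative miR-18a, the next 2 share the seed of miR-19 and the next 3 that of miR-92 and miR-25; miR-106b-3p has a seed of its own.
mmu-miR-17-5p: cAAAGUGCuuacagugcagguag
mmu-miR-20a-5p: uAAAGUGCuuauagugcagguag
mmu-miR-106b-5p: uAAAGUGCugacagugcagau
mmu-miR-93-5p: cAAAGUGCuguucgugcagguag
mmu-miR-18a-5p: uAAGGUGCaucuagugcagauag
mmu-miR-19a-3p: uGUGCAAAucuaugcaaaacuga
mmu-miR-19b-3p: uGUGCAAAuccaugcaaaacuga
mmu-miR-25-3p: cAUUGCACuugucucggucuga
mmu-miR-92a-3p: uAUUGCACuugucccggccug
mmu-miR-92b-3p: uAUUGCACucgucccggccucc
mmu-miR-106b-3p: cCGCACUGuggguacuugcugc

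Counting position from 1 at the 5′ end, miR-19a-3p and miR-19b-3p differ by U11C and miR-17-5p and miR-20a-5p by C1U and C12U. How reads that match several names were counted is not given in the sources used here, so values of such close relatives are uncertain. No pair of member names had the same nonzero counts in every library of a table (0 pairs in rat and 0 in mouse). Of the counts of all names with the seed of miR-17, the members held 97.2% in r1, 90.6% in r2 and 91.4% in r4 of rat, against 99.27% to 99.33% in mouse. For the seed of miR-92 and miR-25 they held 96.6%, 89.6% and 91.2% in r1, r2 and r4, against 99.1% to 99.3% in mouse. Rat names were taken here to have the seed of the mouse name.

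In the mouse genome (GRCm38.p6) the miR-17-92 cluster holds 6 hairpins within 836 bases on the plus strand, at chr14:115043671-115044506, where each hairpin overlaps an annotated exon of the long non-coding gene Mir17hg. The miR-106b-25 cluster holds 3 hairpins within 498 bases on the minus strand, at chr5:138165321-138165818, inside Mcm7 and on its strand. There Mir106b overlaps no annotated exon, and Mir93 and Mir25 overlap an exon of at least 1 annotated Mcm7 transcript. The hairpin Mir92b, at chr3:89227116-89227198 on the minus strand, lies in no other annotated gene and is not part of either cluster. The hairpin Mir106b is printed because both of its arms were well counted, with the 5p and then the 3p arm in capitals.
Mir106b hairpin: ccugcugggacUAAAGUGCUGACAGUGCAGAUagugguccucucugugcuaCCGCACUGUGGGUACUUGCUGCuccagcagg

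The libraries held 24169628 to 28198305 counts in rat and 27843590 to 30514632 in mouse. Levels below are CPM, counts scaled to a common library total, here that of the 542 names found in both tables after TMM factors. On this scale 10 counts stand for 0.397 to 0.806 CPM. The TMM factors were 0.806 in r1, 1.29 in r2 and 1.32 in r4 of rat, and 0.864 to 0.967 in mouse. How r1 compares with r2 and r4 therefore depends on this scaling. Names on a list for retina, such as miR-183-5p and miR-124-3p, held 48.1% to 56.4% of counts in rat and 52.3% to 54.8% in mouse. No name of this list or of any list below was at 0 in all libraries of a species. Rat library r1 stood apart, so results are given with and without it. The listed miRNAs of epithelium, lens and cornea, mainly miR-184, held 0.941% of counts in r1, against 0.181% in r2 and 0.119% in r4, and 0.0323% to 0.127% in mouse. The high value of r1 came from miR-184 alone, with 226444, 44542 and 31551 counts in r1, r2 and r4. The other rat names of this list had their fewest counts in r1, at 114, 304 and 469 for miR-205. In the same order, miR-200b-3p had 668, 753 and 1155 counts and miR-200c-3p 178, 293 and 357. Names of endothelial and mural cells held 0.757% to 0.800% in rat and 0.419% to 0.502% in mouse, mainly miR-143-3p. It had 133375 to 164856 counts in rat and 72580 to 94170 in mouse. Counts of miR-126a-3p (31593 to 57329 and 43209 to 57722) and miR-126a-5p (355 to 1532 and 910 to 1193) overlapped. Names of red blood cells held 0.0162% to 0.0296% and 0.0200% to 0.0215%, and those of leukocytes and microglia 0.00430% to 0.00790% and 0.00520% to 0.00590%. Muscle names held 0.0331% to 0.0420% and 0.0642% to 0.0883%, mainly miR-1 names that differ between the species. Of the shared names, miR-206-3p had more counts in rat (680 to 825 against 449 to 548) and miR-133a-3p fewer (27 to 86 against 94 to 137). The lists hold partly different names in the tables (4 or 5 listed names per list and species, except 3 mouse names for endothelial and mural cells and for muscle, and 7 for retina), and their part in the results was not tested. In such tissue samples, fewer cells of a type and less RNA per cell cannot be told apart.

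All members together were a small part of retinal miRNA, at 0.267% ± 0.0483 of all counts in rat and 0.213% ± 0.00248 in mouse (SD, n = 3 each). The passenger arms added little. At least 10 counts in every library of the species were found for 15 of the 23 rat names and 15 of the 22 mouse names, and 1 rat name and 3 mouse names were at 0 in all libraries. The most abundant member in both species was miR-25-3p, ranked 46 of all names in rat and 54 in mouse, followed by miR-92a-3p, ranked 93 in rat and 81 in mouse. Next, in rat, came miR-106b-3p, whose libraries overlapped those of miR-92a-3p, and then miR-92b-3p. In mouse miR-92b-3p and miR-106b-3p overlapped. Below them the order depended on the species. In rat miR-20a-5p, miR-93-5p and miR-17-5p overlapped one another and stood above miR-19b-3p in every library, whereas in mouse miR-19b-3p stood above all 3 of them in every library.

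**Figure D1:**
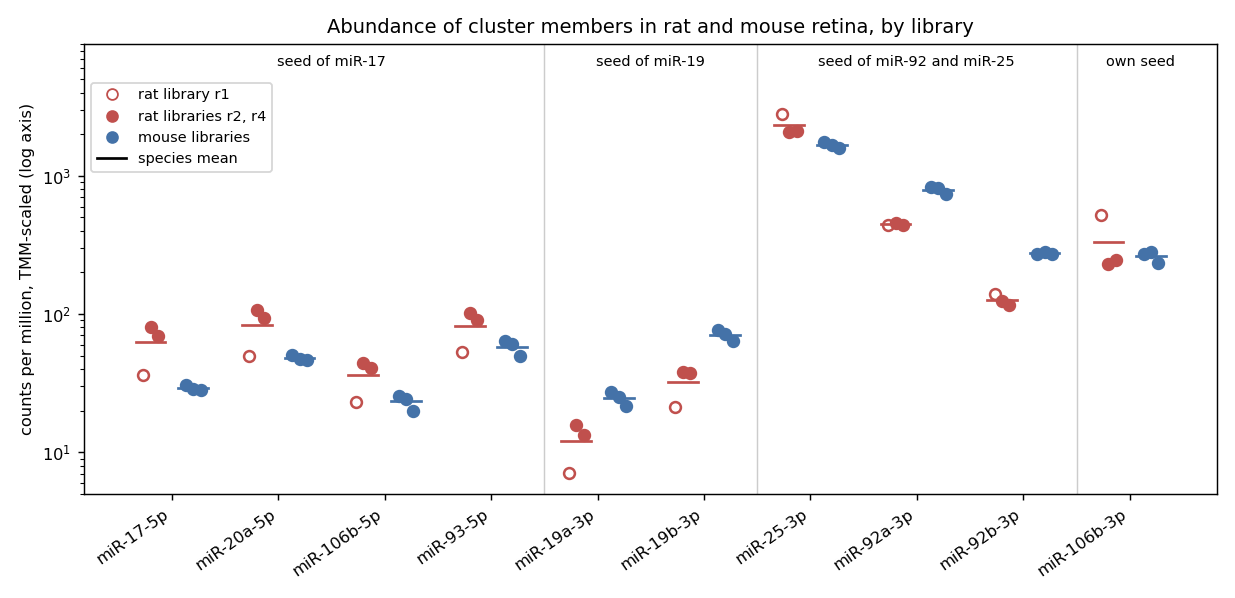
CPM (TMM-scaled, log axis) of 10 member names in the 3 rat libraries (red, r1 open) and the 3 mouse libraries (blue), with the species mean as a bar, grouped by seed. Rat means lie above mouse means for the seed of miR-17 and below for the seed of miR-19, while miR-25-3p lies above and miR-92a-3p and miR-92b-3p below.

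The tested miR-17-92 names had log2 differences on both sides of 0, whereas all 6 miR-106b-25 names had one above 0 with all libraries (0.15 to 0.63), of which 1, that of miR-25-3p, was called. Names with the seed of miR-17 had higher means in rat in both clusters, names with the seed of miR-19 were lower, and the seed of miR-92 and miR-25 was divided, with miR-25-3p higher and miR-92a-3p and miR-92b-3p lower. Of 14 members that passed the filter on low counts, 3 were higher in rat (miR-17-5p, miR-20a-5p and miR-25-3p) and 5 lower (miR-19a-3p, miR-19b-3p, miR-92a-3p, miR-92b-3p and miR-92b-5p) at an adjusted p under 0.05 in edgeR's quasi-likelihood test. Among all 398 names tested, 25.6% were called higher and 24.4% lower, so 3 and 5 of 14 are close enough to the background not to be a result about the members as a set. All rat libraries lay above all mouse libraries for 3 of the 14 and below them for 5 (all names: 29.4% and 30.4%). The median log2 difference was 0.25 over the 14 members and 0.078 over all names tested. Without r1, 5 members were higher and 5 lower, where 36.6% of all 413 names tested were called higher and 34.4% lower. Scaled by the totals of the shared names alone, 3 were higher and 2 lower (all names: 31.9% and 10.8%), and the median of all names moved up by 0.36. The number called higher was 1 without m1, 1 without m3 and 0 without m4, where 20%, 19.5% and 19% of all names tested were called higher.

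**Figure D2:**
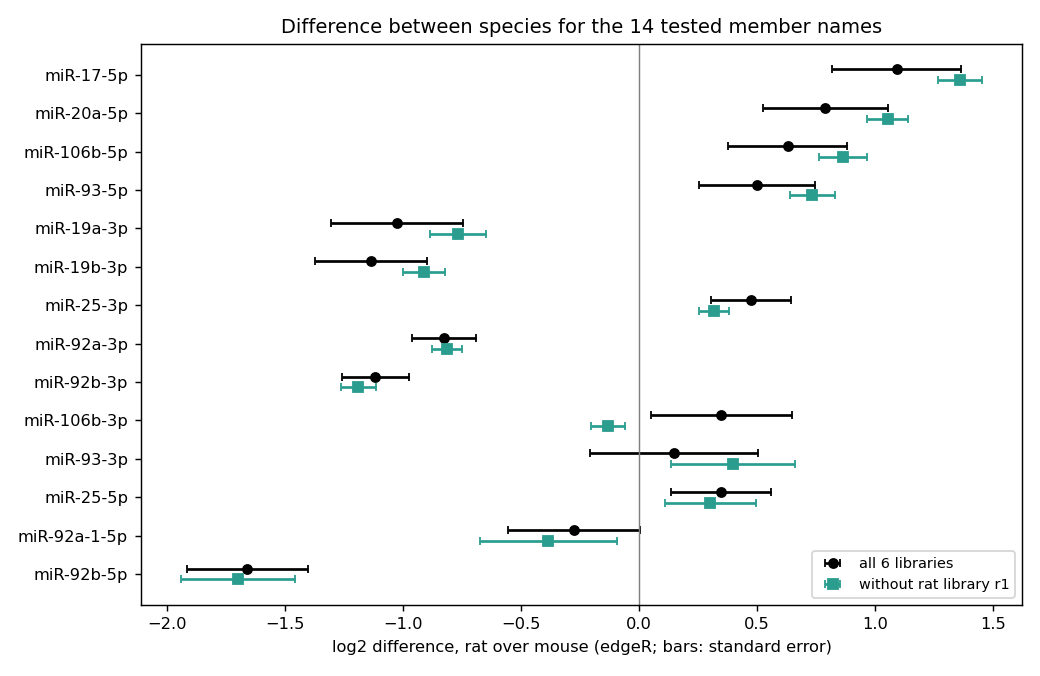
Log2 difference between species (rat over mouse, edgeR, bars are standard errors) for the 14 tested member names, with all 6 libraries (black) and without rat library r1 (green). The 4 names with the seed of miR-17 lie right of 0 and the 2 with the seed of miR-19 left of it in both fits, whereas miR-106b-3p moves from 0.35 to -0.13 when r1 is left out.

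The names with the seed of miR-17 came from both clusters, and each had a higher mean in rat. MiR-17-5p, which gives the seed group its name and is known to repress the cell cycle inhibitor p21, had 36.3, 80.7 and 69.8 CPM in r1, r2 and r4 of rat, against 30.8, 28.7 and 28.4 CPM in m1, m3 and m4 of mouse. All rat libraries lay above all mouse libraries, with r1 the closest to mouse. It rose by 1.09 ± 0.27 on the log2 scale (SE, adjusted p = 0.00949), and by 1.36 without r1 (adjusted p = 6.40e-07).

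MiR-20a-5p, whose mouse hairpin lies in the same cluster, had 49.3, 106.3 and 94.1 CPM in the rat libraries r1, r2 and r4. It had 50.8, 47.6 and 46.5 CPM in the mouse libraries m1, m3 and m4. Here r1 fell inside the mouse range. The log2 difference was 0.79 ± 0.26 (SE, adjusted p = 0.0345), and 1.05 without r1 (adjusted p = 2.27e-06). The call of miR-20a-5p was lost without r2 (adjusted p = 0.110), r4 (0.0918), m1 (0.0802), m3 (0.112) or m4 (0.134), and that of miR-17-5p without m4 (0.0623), with log2 differences that stayed above 0. Scaled by library totals, miR-20a-5p was at 1.22 and was not called (adjusted p = 0.0542).

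From the other cluster, miR-106b-5p had 23.2, 44.1 and 40.6 CPM in r1, r2 and r4, against 25.7, 24.3 and 19.9 CPM in m1, m3 and m4. MiR-93-5p, cut from the next hairpin, had 52.9, 102.4 and 90.1 CPM in rat and 63.6, 60.9 and 49.7 CPM in mouse, in the same order of libraries. For both, r1 lay among the mouse libraries and r2 and r4 above them. Neither was called, with log2 differences of 0.63 ± 0.25 for miR-106b-5p (SE, adjusted p = 0.0666; 0.0317 with DESeq2) and 0.50 ± 0.25 for miR-93-5p (adjusted p = 0.125). Without r1 both rose, by 0.86 (adjusted p = 3.53e-05) and 0.73 (adjusted p = 6.18e-05).

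The seed group of miR-17 summed to 161.8, 333.5 and 294.7 CPM in r1, r2 and r4 of rat, against 170.9, 161.5 and 144.4 CPM in m1, m3 and m4 of mouse. Its mean was 263.3 CPM ± 90.1 in rat and 158.9 CPM ± 13.5 in mouse (SD, n = 3 each), a log2 ratio of 0.73, or 0.98 without r1. With miR-20b-5p and the other names of the seed added it was 0.84. Within the members' sum, miR-20a-5p held 31.4% ± 0.822 in rat and 30.5% ± 1.496 in mouse, miR-93-5p 31.3% ± 1.21 and 36.4% ± 1.78, miR-17-5p 23.4% ± 0.919 and 18.5% ± 1.02, and miR-106b-5p 13.8% ± 0.571 and 14.6% ± 0.736 (SD, n = 3 each). The share of miR-17-5p was higher and that of miR-93-5p lower in every rat library than in any mouse library, and the other two overlapped. In r1 the 4 shares were close to those of r2 and r4, although r1 held less of each name. The near relative miR-18a-5p, encoded between miR-17 and miR-19a, was almost absent from the counts, with 1, 5 and 12 counts in r1, r2 and r4 and 5, 3 and 5 counts in m1, m3 and m4, and was not tested.

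The names with the seed of miR-19 went the other way, although in mouse miR-19a and 1 copy of miR-19b lie in the same cluster as miR-17 and miR-20a. Counts by name do not tell this copy of miR-19b from the copy on the X chromosome. Nor do they tell apart possible further loci of miR-17-5p in rat, so a difference within 1 transcript was not tested. MiR-19b-3p had 21.1, 38.0 and 37.2 CPM in r1, r2 and r4 of rat, against 77.0, 71.5 and 64.2 CPM in m1, m3 and m4 of mouse. MiR-19a-3p had 7.09, 15.6 and 13.2 CPM in rat and 27.3, 25.02 and 21.6 CPM in mouse, in the same order. For both names all rat libraries lay below all mouse libraries, with r1 the lowest.

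MiR-19b-3p fell by 1.14 ± 0.24 on the log2 scale (SE, adjusted p = 0.00375) and miR-19a-3p by 1.03 ± 0.28 (adjusted p = 0.0142). Without r1 the log2 differences were -0.91 and -0.77 (adjusted p = 8.45e-06 and 0.000244). Scaled by library totals, neither was called, at -0.72 (adjusted p = 0.177) and -0.60 (adjusted p = 0.286), and miR-19a-3p was not called without m1 (adjusted p = 0.0607), m3 (0.0537) or m4 (0.0524). The sum of both was 44.1 CPM ± 13.9 in rat and 95.5 CPM ± 9.28 in mouse (SD, n = 3 each), a log2 ratio of -1.11, or -0.88 without r1. MiR-19b-3p was 2.74 ± 0.280 times as abundant as miR-19a-3p in rat and 2.88 ± 0.0797 times in mouse, with overlapping libraries.

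**Figure D3:**
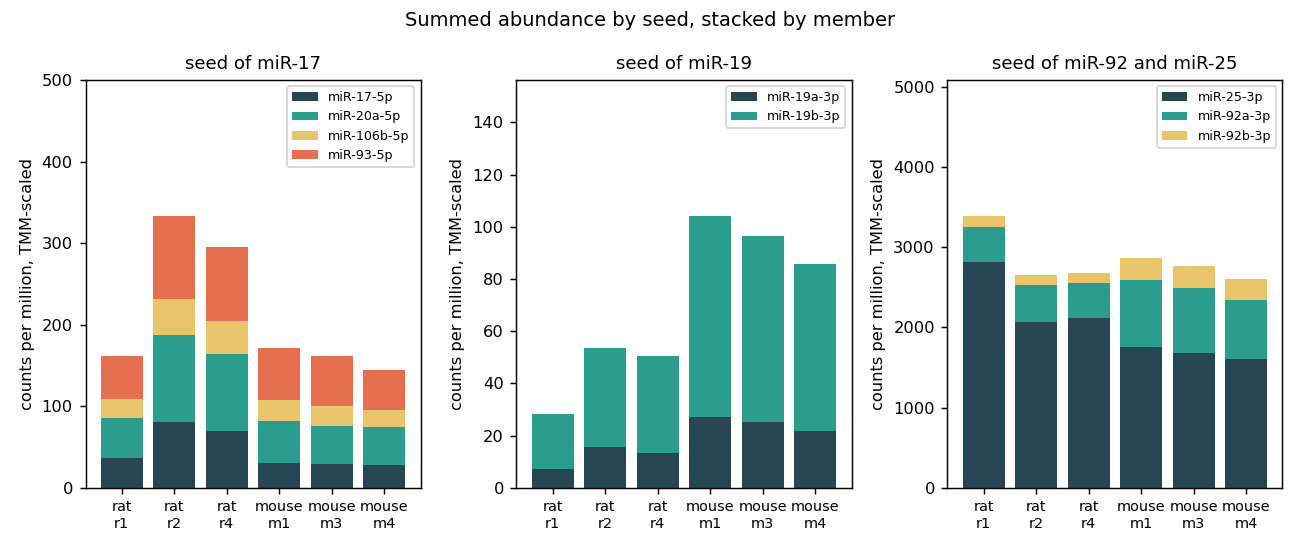
Summed abundance of the members that share a seed, in CPM (TMM-scaled), with 1 bar per library and each member stacked. Rat libraries r2 and r4 are above mouse for the seed of miR-17, all rat bars are below mouse for the seed of miR-19, and for the seed of miR-92 and miR-25 the totals of the members overlap while miR-25-3p takes a larger part in rat.

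The members with the seed of miR-92 and miR-25 were divided differently in the species. MiR-25-3p, of the miR-106b-25 cluster, had 2815, 2065 and 2118 CPM in r1, r2 and r4 of rat, against 1757, 1682 and 1600.1 CPM in m1, m3 and m4 of mouse. All rat libraries lay above all mouse libraries, with r1 the highest on TMM scaling. It rose by 0.47 ± 0.17 on the log2 scale (SE, adjusted p = 0.0431), by 0.32 without r1 (adjusted p = 0.00143). The call was lost with the relaxed names (adjusted p = 0.0651), with no filter on low counts (0.0615) and without m1 (0.0970), m3 (0.123) or m4 (0.0896).

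MiR-92a-3p, which in endothelial cells is known to restrain vessel growth, had 440.2, 459.3 and 441.9 CPM in r1, r2 and r4 of rat, against 831.5, 810.6 and 737.2 CPM in m1, m3 and m4 of mouse. With the TMM factors it was nearly the same in the 3 rat libraries, r1 included, and below every mouse library. It fell by 0.83 ± 0.14 on the log2 scale (SE, adjusted p = 0.00105). The difference was -0.81 without r1 (adjusted p = 1.64e-06), and -0.48 with library totals, where it was not called (adjusted p = 0.117).

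MiR-92b-3p, from its own locus, had 138.6, 123.6 and 117.2 CPM in r1, r2 and r4 of rat, against 273.9, 279.0 and 270.6 CPM in m1, m3 and m4 of mouse. It fell by 1.12 ± 0.14 (SE, adjusted p = 0.000226), also with library totals (-0.79, adjusted p = 0.0125) and without r1 (-1.19, adjusted p = 2.92e-07). Its passenger miR-92b-5p fell too, to 1.78 CPM ± 0.431 in rat against 5.59 CPM ± 0.475 in mouse (SD, n = 3 each; log2 difference -1.66 ± 0.26, adjusted p = 0.000786). Both arms of this hairpin were thus lower in rat.

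Summed over the 3 members with this seed, the libraries of the species overlapped, at 2906 CPM ± 422 in rat and 2747 CPM ± 129 in mouse (SD, n = 3 each). The log2 ratio was 0.081, and -0.045 without r1. The overlap depended on the scaling. On totals of the shared names the sum was 2735, 3429 and 3544 CPM in r1, r2 and r4 of rat. In m1, m3 and m4 of mouse it was 2482, 2394 and 2521 CPM, below every rat library (log2 ratio 0.39, and 0.50 without r1). The sum leaves out miR-363-3p, a name of the paralog cluster with the same seed, which had 206.5 CPM ± 94.7 in rat and 1.06 CPM ± 0.113 in mouse, and miR-32-5p. Over all names with the seed the sum was 3135 CPM ± 326 in rat and 2769 CPM ± 129 in mouse (SD, n = 3 each), with every rat library above every mouse library (log2 ratio 0.18, and 0.090 without r1). Of the members' sum miR-25-3p held 80.0% ± 2.60 in rat and 61.1% ± 0.394 in mouse, miR-92a-3p 15.6% ± 2.32 and 28.9% ± 0.516, and miR-92b-3p 4.38% ± 0.292 and 10.004% ± 0.408 (SD, n = 3 each). These shares do not depend on the scaling of the libraries, and those of the species did not overlap for any of the 3 names.

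Ratios within a library, which the scaling does not touch either, showed the split among the miR-17-92 names. They do not tell apart loci that give the same name. MiR-19b-3p over miR-17-5p was 0.582, 0.471 and 0.533 in r1, r2 and r4 of rat, against 2.50, 2.49 and 2.26 in m1, m3 and m4 of mouse. Here r1 lay with the other rat libraries. MiR-92a-3p over miR-17-5p was 12.1, 5.69 and 6.33 in rat and 27.0, 28.2 and 26.0 in mouse, and r1 stood between. MiR-20a-5p over miR-17-5p, with the same seed, varied least, at 1.34 ± 0.0222 in rat and 1.65 ± 0.00955 in mouse (SD, n = 3 each), but the libraries of the species did not overlap there either.

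**Figure D4:**
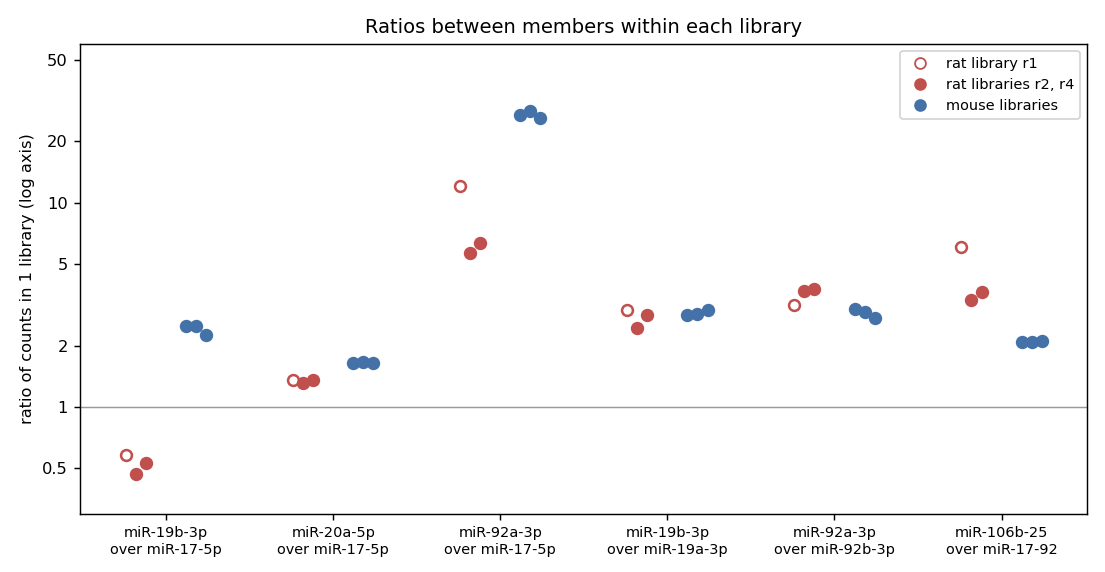
Ratio of counts between members in each library (log axis), rat in red with r1 open and mouse in blue. The ratio of miR-19b-3p to miR-17-5p is 0.471 to 0.582 in rat and 2.26 to 2.50 in mouse, while that of miR-19b-3p to miR-19a-3p overlaps between the species.

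By cluster, the miR-106b-25 names summed to 2790 CPM ± 546 in rat and 2028 CPM ± 108 in mouse, and the miR-17-92 names to 658.8 CPM ± 86.4 in rat and 973.3 CPM ± 61.8 in mouse (SD, n = 3 each). Neither sum overlapped between the species on this scaling, with log2 ratios of 0.46 for miR-106b-25 and -0.56 for miR-17-92, and of 0.29 and -0.46 without r1. On totals of the shared names the libraries overlapped for miR-17-92, at 454.0, 947.2 and 902.1 CPM in r1, r2 and r4 of rat, against 888.3, 855.6 and 874.4 CPM in m1, m3 and m4 of mouse. There the log2 ratio was -0.18, and 0.083 without r1. The miR-106b-25 cluster was 6.07, 3.35 and 3.67 times the miR-17-92 cluster in r1, r2 and r4 of rat, against 2.07, 2.07 and 2.11 times in m1, m3 and m4 of mouse. These sums mostly follow 1 name each. MiR-25-3p held 83.8% ± 1.29 of the miR-106b-25 sum in rat and 82.9% ± 0.882 in mouse, and miR-92a-3p held 68.6% ± 8.34 of the miR-17-92 sum in rat and 81.5% ± 0.345 in mouse (SD, n = 3 each). With miR-19b-3p and miR-92a-3p left out, as names that the paralog cluster also encodes, the log2 ratio of the miR-17-92 sum changed sign, at 0.72 against -0.56 with them. The largest names left are miR-20a-5p and miR-17-5p, both called higher, so the sign follows from which names were removed. The value is not that of 1 locus, since miR-17-2-3p, whose rat locus was not checked, stays in the sum.

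The arms of the hairpins had the same dominant side in both species. The 3p arm led in miR-106b, miR-25, miR-19a, miR-19b, miR-92a and miR-92b, and the 5p arm in miR-93 and miR-20a. Unlike miR-93 and miR-20a, whose 5p arm has the same seed, miR-106b was led by its 3p arm, by 22.5, 5.24 and 6.08 fold in r1, r2 and r4 of rat and by 10.6, 11.5 and 11.8 fold in m1, m3 and m4 of mouse. Here r1 lay above every mouse library and r2 and r4 below. The log2 ratio of the 5p to the 3p arm differed by 0.33 ± 0.57 (SE, limma, adjusted p = 0.728), and by 0.998 ± 0.13 without r1 (adjusted p = 0.00481).

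Its major arm miR-106b-3p itself had 524.3, 230.8 and 247.2 CPM in r1, r2 and r4 of rat, against 271.9, 279.7 and 235.7 CPM in m1, m3 and m4 of mouse. It was not called (log2 difference 0.35 ± 0.30, adjusted p = 0.365), and without r1 the difference was -0.13 (adjusted p = 0.128). With library totals it was called higher, at 0.57 (adjusted p = 0.0331).

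**Figure D5:**
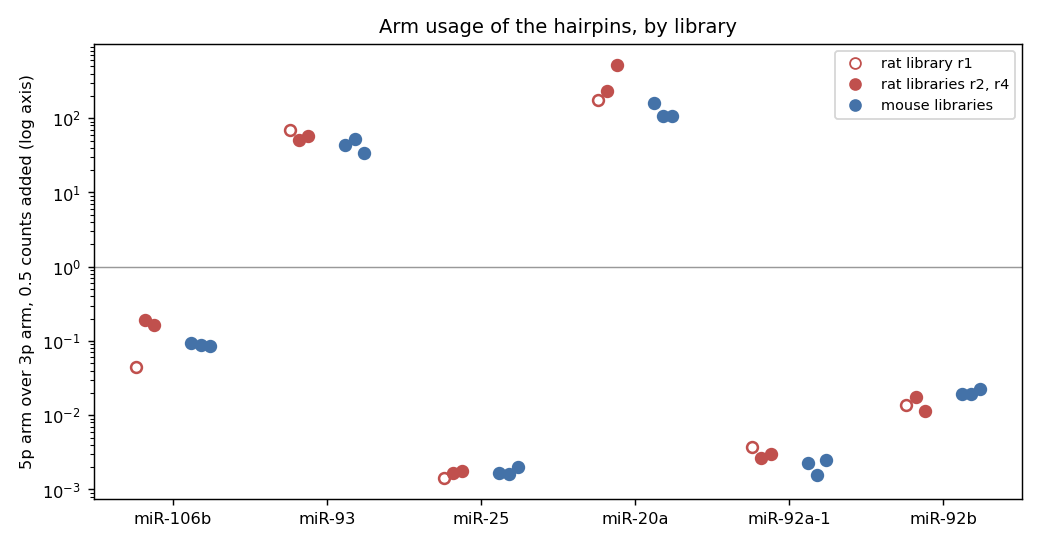
The 5p arm over the 3p arm, with 0.5 counts added to each, for 6 hairpins in each library (log axis), rat in red with r1 open and mouse in blue. Points above 1 mark a dominant 5p arm, and for miR-106b r1 lies below the mouse libraries and r2 and r4 above them.

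Among 10 member hairpins with enough counts, 1 had a called difference in arm ratio, toward the 5p arm, where 7.96% of all 201 hairpins tested were called toward 5p and 15.9% toward 3p. It was miR-92a-2, whose 5p arm had 0, 3 and 2 counts in rat and 0 in each mouse library. The size of its difference thus rests on the added 0.5 counts. For the copies of miR-19b and of miR-92a, the 5p arm of 1 copy was set against the 3p name that the copies share. Those ratios are therefore not of 1 hairpin alone. Without r1 there were 5 called, all toward 5p (all 207 hairpins: 13.5% and 30%), of which miR-19a, miR-19b-2 and miR-92a-2 rested on 5p arms of at most 3 counts per library. The others were miR-106b and miR-20a, and as the 3p arm of miR-20a had 3, 10 and 4 counts in r1, r2 and r4 and 5, 8 and 8 counts in m1, m3 and m4, the call of miR-106b alone rested on 2 well counted arms. Without m3, and without m4, the number called was 0.

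Copy-specific passenger arms of miR-92a and miR-19b were rare. MiR-92a-1-5p, from the copy in miR-17-92, had 20, 27 and 33 counts in r1, r2 and r4, against 32, 24 and 36 counts in m1, m3 and m4, and did not pass the test (log2 difference -0.28 ± 0.28, adjusted p = 0.449; 0.051 with library totals). MiR-92a-2-5p and miR-19b-2-5p, from the copies on the X chromosome of mouse, were at 0 in every mouse library, where the floor of 3 counts is 0.152 to 0.174 CPM. The other tested passengers, miR-25-5p (0.35 ± 0.21, adjusted p = 0.208) and miR-93-3p (0.15 ± 0.35, adjusted p = 0.753), were at most 3.95 CPM in any library. The arm opposite miR-17-5p is listed as miR-17-3p in mouse, with 77, 90 and 79 counts in m1, m3 and m4. In rat it is listed as miR-17-1-3p, with 13, 32 and 44 counts in r1, r2 and r4, and miR-17-2-3p, with 73, 629 and 528 counts. These names were not compared between the species.

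Of the miR-106a-363 paralog cluster, 3 names could be tested and all 3 were called higher in rat, as were 25.6% of all 398 names. The log2 difference was 7.59 ± 0.46 for miR-363-3p (SE, adjusted p = 1.79e-06), 4.97 ± 0.71 for miR-20b-5p (adjusted p = 0.000523) and 7.29 ± 1.003 for miR-20b-3p (adjusted p = 0.000417). The last had 0, 1 and 0 counts in m1, m3 and m4, so its size depends on the prior count of the fit. MiR-20b-5p, with the seed of miR-17, had 57, 781 and 698 counts in r1, r2 and r4, against 11, 13 and 16 counts in m1, m3 and m4. In r1 its CPM was 0.148 times the mean of r2 and r4. That fraction was 0.241 for miR-17-2-3p, 0.663 for miR-17-1-3p and 0.482 for miR-17-5p.

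The pattern over the 6 libraries was set against the 154 other names of at least 100 CPM in a species, as the root mean square distance of centred log2 CPM. Closest to miR-17-5p were miR-384-3p (0.060), miR-384-5p (0.10) and miR-411-5p (0.22). Closest to miR-25-3p were miR-320-3p (0.057), miR-1843a-5p (0.084) and miR-425-5p (0.093), and closest to miR-92a-3p were miR-30d-5p (0.068), miR-34c-5p (0.082) and miR-27b-3p (0.097). All of them share the 2 species and the libraries, so likeness is a description over 6 points.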

How the data were processed

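Each species has 1 table of counts, which the authors deposited as unnormalized whole numbers for every mature miRNA name. Per the labels' protocols, eyes were stored in RNAlater before dissection, RNA came from a miRNeasy kit and reads were single-end of 50 bases; the text names rat eyes for both species. For trimming, aligner and annotation the labels and headers name nothing. Column names do not match the replicate numbers of the labels, so columns were assigned to species only.

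Names were joined exactly after removal of the species prefix (542 shared; a relaxed match added 36). The test of abundance was that of edgeR 4.0.16 (R 4.3.3; filterByExpr, TMM, quasi-likelihood F test, species as the only term, 398 names, Benjamini-Hochberg). Arm ratios were tested with limma 3.58.1 on log2((5p + 0.5)/(3p + 0.5)) where both arms together had at least 50 counts in every library. DESeq2 1.42.0, library totals, other filters and leaving out each library were alternatives. Sums, ratios and shares are values without a test, and floors cover counting error only. Every member with at least 10 counts in each library of a species was to be described. Tests were run on simulated data first. The members and lists were chosen with earlier results of these data known. Gene positions came from RefSeq and GENCODE M21 (GRCm38).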

Additional observations from a re-analysis of the deposited data

How the results depend on the processing

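The number of members higher in rat, 3 with all libraries, ran from 0 to 5 when 1 library was left out, and the number lower, 5, from 4 to 5. With library totals of the shared names or of all names 2 were lower. The number of hairpins with a called arm ratio, 1, ran from 0 to 5. DESeq2 called 4 higher and 5 lower. The log2 ratio of the miR-17-92 sum, -0.56, was -0.29 on totals of all names, -0.18 on totals of the shared names and 0.72 without miR-19b-3p and miR-92a-3p. On totals of the shared names that of miR-106b-25 was 0.76 (0.46 in the main scaling), of the seed of miR-17 1.16 (0.73), of the seed of miR-19 -0.69 (-1.11) and of the seed of miR-92 and miR-25 0.39 (0.081); the last was 0.28 on totals of all names and 0.33 without miR-92a-3p. Signs changed for miR-92a-1-5p (0.051 with totals of the shared names) and, when 1 library was left out, for miR-106b-3p (-0.13 to 0.56, lowest without r1), miR-93-3p (-0.14 to 0.40, lowest without r2) and the miR-106b arm ratio (-0.055 to 0.998, lowest without r2), none of them called with all libraries. Without r1 the sum for the seed of miR-92 and miR-25 was -0.045, and that of miR-17-92 on totals of the shared names 0.083. With all names of a seed, chosen after seeing the data, the sums were 0.84 for miR-17 and 0.18 for miR-92 and miR-25. The cause was not tested. Library totals move the median of all names by 0.36, and 74.7% of all calls were then higher, against 51.3%. No paired analysis was possible because the numbers in the column names are not those of the labels' replicates and could not be matched to them. At this depth miR-18a and most passenger arms were too few to compare.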

Other observations

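Rat library r1 differed from r2 and r4 in a way that cut across the clusters. Its TMM-scaled CPM was 0.482 to 0.561 times the mean of r2 and r4 for the 6 names with the seeds of miR-17 and miR-19. It was 0.977 times that mean for miR-92a-3p, 1.15 times for miR-92b-3p, 1.35 times for miR-25-3p and 2.19 times for miR-106b-3p. All these ratios move together with the TMM factors, 0.806 in r1, 1.29 in r2 and 1.32 in r4. Among 231 names with a mean of at least 10 CPM in rat and a mouse mature sequence, 11 were lower in r1 by more than 1 on the log2 scale (4.76%), and miR-17-5p and miR-20a-5p were 2 of them. Among these names the log2 ratio of r1 to r2 and r4 had a Spearman rho of 0.21 with the GC content of the mature sequence, a description over names that share 3 libraries. The 10 members in it had GC contents of 34.8% (miR-19a-3p) to 63.6% (miR-92b-3p and miR-106b-3p). The name miR-935, which was set aside, had 13, 32 and 37 counts in r1, r2 and r4, against 24, 23 and 24 counts in m1, m3 and m4.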
